A study of Mus musculus with 12 samples.

Results

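The 10 genes described here are Fos, Fosb, Fosl1, Fosl2, Junb, Jund, Egr1, Dusp1, Ier2 and Arc, which belong to the immediate early response. They were taken by gene symbol from RNA-seq of mouse dorsal root ganglia, where all 10 were among the 24060 genes listed. The donors were male C57BL/6J mice, adult at 9 to 10 weeks of age, either naive or after spared nerve injury (SNI), a model of neuropathic pain in which the sural branch of the sciatic nerve is spared, while its common peroneal and tibial branches are tied off and cut. Of the 12 libraries, 3 were of naive ganglia, 3 of ganglia at day 1 after SNI, 3 at day 3 and 3 at day 7, and the design sets expression over time beside pain behaviour. Sham surgery was not analysed here, and the operation and the nerve lesion therefore cannot be told apart. The labels do not say whether a library came from 1 animal or a pool, nor which ganglia were taken, and the p-values therefore measure only how far these libraries differ, which may be technical.

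Immediate early genes are switched on by stimuli such as synaptic activity, growth factors or stress, without a need for new protein, and their messenger RNAs are usually short-lived. Fos and Jun family proteins pair through leucine zippers to form AP-1, a transcription factor that binds the promoters and enhancers of many stress and growth genes. Egr1 encodes a zinc finger transcription factor, Dusp1 a phosphatase that switches off MAP kinases, Ier2 a small regulator of transcription and Arc a synaptic protein that controls glutamate receptor traffic. In sensory neurons a cut axon sets off a slower programme in which AP-1 factors such as Jun and Atf3 take part, and days 1 to 7 fall in the time of that programme rather than in the first hours after injury.

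The promoters of Fosl2 and Dusp1, the 2 members that rose after injury, are shown with that of Fos, the founding member of the family, which did not pass the test. Each run is the 250 bases before the transcription start in RefSeq (GRCm38.p6), 5′ to 3′ on the gene's strand. The windows are chr5:32136222-32136471 on the plus strand for Fosl2, chr17:26508473-26508722 on the minus strand for Dusp1 and chr12:85473640-85473889 on the plus strand for Fos. Capitals mark matches, on either strand, to the Egr site GCGNGGGCG, the cAMP response element TGACGTCA, its short form CGTCA, the AP-1 site TGANTCA, the TATA box TATAAA and the CArG box bound by serum response factor.
Fosl2: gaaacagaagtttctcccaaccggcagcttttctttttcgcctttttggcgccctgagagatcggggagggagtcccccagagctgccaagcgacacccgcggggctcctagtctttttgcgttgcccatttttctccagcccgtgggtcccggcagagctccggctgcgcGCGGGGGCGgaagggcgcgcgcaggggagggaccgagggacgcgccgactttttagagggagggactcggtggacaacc
Dusp1: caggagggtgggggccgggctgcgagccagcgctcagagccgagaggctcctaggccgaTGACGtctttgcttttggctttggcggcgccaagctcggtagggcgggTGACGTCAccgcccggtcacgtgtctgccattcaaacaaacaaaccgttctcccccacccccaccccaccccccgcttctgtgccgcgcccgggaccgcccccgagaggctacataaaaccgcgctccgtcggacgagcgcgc
Fos: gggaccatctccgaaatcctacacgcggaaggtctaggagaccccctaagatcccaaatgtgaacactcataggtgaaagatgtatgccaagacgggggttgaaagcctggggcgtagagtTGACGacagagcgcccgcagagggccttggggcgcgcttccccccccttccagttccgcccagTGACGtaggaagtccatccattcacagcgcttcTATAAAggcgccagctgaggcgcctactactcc
The Fosl2 window held 1 match to the Egr site, which 4.70% of 32851 RefSeq promoter windows of the same length also hold. The Dusp1 window held the full cAMP response element, present in 1.55% of windows, and another short form upstream of it. The full element contains the short form on both strands. The Fos window held the short form at 2 places, found in 17.8% of windows, and a TATA box, found in 12.4%. None of the 3 windows held the AP-1 site (6.75% of windows) or the CArG box (1.47%), which says only that these letters are not in these windows. In another annotation, GENCODE M21, Fosl2 starts at 32135801 and Dusp1, on the minus strand, at 26562128. There the windows of both lie inside the gene. Promoter sequences were found for 6 of the 10 members.

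On the mm10 (GRCm38) build, RefSeq places Fosl2 on chromosome 5 from 32136472 to 32157840, Dusp1 on chromosome 17 from 26505591 to 26508472 and Fos on chromosome 12 from 85473890 to 85477274. Fosb lies on chromosome 7 from 19302696 to 19310118, Fosl1 on chromosome 19 from 5447698 to 5455938 and Arc on chromosome 15 from 74669081 to 74672570. Junb, Jund and Ier2 are on chromosome 8 and Egr1 is on chromosome 18. The annotation lists all 10 as protein-coding genes. In GENCODE M21, exons of Fosl1 overlap those of Ccdc85b, exons of Junb those of Prdx2 and exons of Jund those of Gm11175, each on the opposite strand. An extended transcript of Dusp1 likewise overlaps Ergic1, and since no strand setting is given, reads of such pairs cannot be told apart.

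Recovered depth was 12262673 to 16004320 reads per library. All 14 sensory neuron markers were present in these libraries, with a summed level in RPKM (reads scaled to gene length and library depth) of 2715 to 3486 in naive ganglia, 2167 to 3348 at day 1, 2260 to 2894 at day 3 and 1757 to 2765 at day 7, and 0, 1 and 1 of them fell at days 1, 3 and 7. Of 6 satellite glia markers 1 rose at days 1 and 3, and of 5 fibroblast markers 1 fell at day 1. Skeletal muscle markers were high in naive replicate 1 and day 7 replicate 2, at 35.7 and 26.7 RPKM in sum. The sum was at most 6.35 RPKM at day 1 and 2.54 RPKM at day 3. One of these markers, Myh4, stood at 9.75, 2.59 and 0.502 RPKM in naive replicates 1, 2 and 3. Summed macrophage markers were 11.9 to 15.2 RPKM in naive ganglia, 14.0 to 16.1 RPKM at day 1, 26.2 to 36.8 RPKM at day 3 and 28.9 to 39.6 RPKM at day 7, and 0, 3 and 3 of 7 tested markers rose at days 1, 3 and 7. Summed neutrophil markers were 12.3 to 13.6 RPKM in naive ganglia, 6.39 to 13.2 at day 1, 8.17 to 49.6 at day 3 and 10.3 to 26.9 at day 7. Of 2 tested neutrophil markers 0 rose and 0 fell on any day. Here rose and fell mean an adjusted p under 0.05 in the limma tests described below. Of all genes tested, 2.6%, 3.72% and 2.32% rose and 0.831%, 1.95% and 0.599% fell at days 1, 3 and 7. The part of these cell types in the results was not tested.

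The members covered a wide range of levels. On the RPKM scale, which is per length, Dusp1 averaged 8.09 over the 12 libraries, Fosl2 6.27, Egr1 3.22, Fos 1.09 and Jund 1.06. Those 5 members reached 1 RPKM in at least 3 libraries and were tested. The other 5, Arc at 0.502, Ier2 at 0.354, Junb at 0.161, Fosl1 at 0.0993 and Fosb at 0.0880 RPKM, did not reach 1 RPKM in any library and are given as values. In naive ganglia Dusp1 was highest, from 4.11 to 5.25 RPKM, and did not overlap Egr1, at 2.42 to 3.43 RPKM. Egr1 and Fosl2 overlapped there, as did Jund and Fos, while at day 1 the highest members, Dusp1 and Fosl2, overlapped each other.

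**Figure D1:**
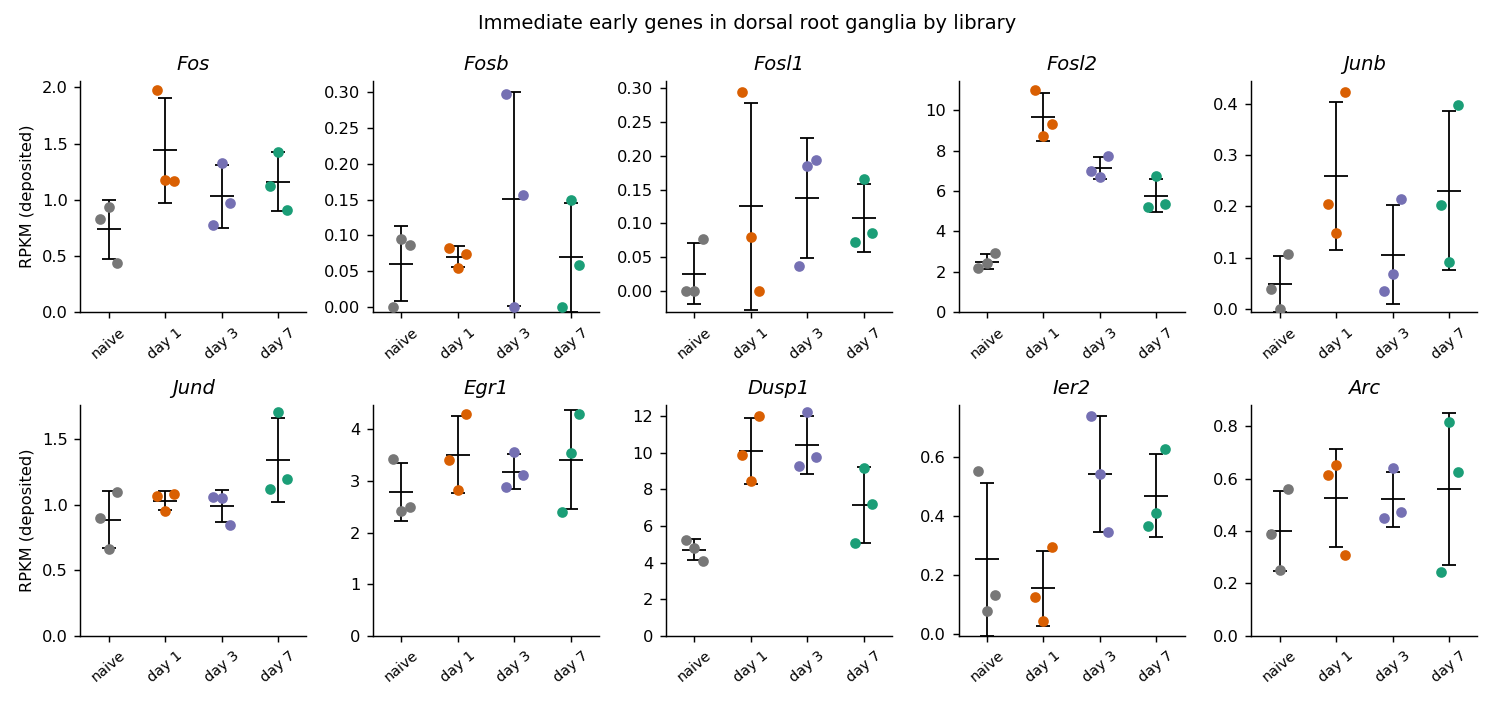
Deposited RPKM of the 10 members in each library (points, 3 per group) for naive, day 1, day 3 and day 7 ganglia, with the group mean and SD as black bars; each panel has its own RPKM axis. Fosl2 lies above all naive libraries at every day, Dusp1 at days 1 and 3, Fos and Junb at day 1 and Jund at day 7. Of all genes tested, 11.0%, 13.8% and 11.0% do so at days 1, 3 and 7.

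Of the 5 tested members 2 rose at day 1, Fosl2 and Dusp1, and none fell. Across all 14195 genes tested with limma on log2(RPKM + 0.5), 2.6% rose and 0.831% fell at day 1 at an adjusted p under 0.05 (Benjamini-Hochberg). At day 3 the same 2 members rose, against 3.72% of all genes, and none fell, against 1.95%. At day 7 Fosl2 alone of the 5 rose, against 2.32% of all genes, and none fell, against 0.599%. A test over the 4 groups together called Fosl2 (adjusted p = 4.71e-05) and Dusp1 (adjusted p = 0.00309), against 4.78% of all genes. Because 0.5 is added before taking logs, fold changes of low genes are understated. The 3 comparisons share the naive libraries. In bulk ganglia, a change in the number of cells of a type and a change in RNA per cell cannot be told apart.

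Fosl2 encodes Fra-2, a Fos family member that lacks the strong activation domain of Fos. It stood at 2.17, 2.46 and 2.91 RPKM in the naive libraries, 11.0, 8.72 and 9.31 at day 1, 6.98, 6.71 and 7.73 at day 3 and 5.22, 6.72 and 5.37 at day 7. Every injured library lay above every naive one, and every day 1 library above every day 3 and day 7 library. The share of all genes that separate the injury days in this way was not counted. Means were 9.67 ± 1.17 RPKM at day 1 and 2.51 ± 0.375 RPKM in naive ganglia (SD, n = 3 each), and the log2 fold change was 1.76 (SE 0.15), with an adjusted p of 1.78e-05 in limma. At day 3, with a mean of 7.14 ± 0.528 RPKM, it rose by 1.32 (SE 0.15) at an adjusted p of 0.00011. At day 7, with a mean of 5.77 ± 0.824 RPKM, it rose by 1.03 (SE 0.15) at an adjusted p of 0.00134. On that scale the fold was 3.4 at day 1, 2.5 at day 3 and 2.05 at day 7. Without the 2 libraries with muscle transcripts the day 7 rise was 0.83 (adjusted p = 0.0431).

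Fosl2 was lower at day 7 than at day 1, with a log2 fold change of -0.73 (SE 0.15) and an adjusted p of 0.0414 in limma, where 0.972% of all genes were called and 0.359% were called lower. The call held in 7 of 22 alternative fits. It ended in 10 of 12 fits that left out 1 library, with an adjusted p between 0.0585 and 0.178 in limma. The fits without naive replicate 1 (0.0357) and without naive replicate 3 (0.0451) kept it. The call also ended with a pseudocount of 0.1 (0.0514) and without an expression filter (0.0586). The same held without the 2 libraries with muscle transcripts (0.0547) and with only the 2 groups compared (0.124). Voom on recovered reads gave the smallest adjusted p, 0.00305. The fits without naive replicate 2 (0.0585), day 1 replicates 1, 2 and 3 (0.178, 0.0787 and 0.0812), day 3 replicates 1, 2 and 3 (0.0585, 0.0588 and 0.06) and day 7 replicates 1, 2 and 3 (0.0793, 0.0617 and 0.122) did not pass. No member passed for day 3 against day 1, where 0.507% of all genes were called, or for day 7 against day 3, where 0 were called (0%), in limma or voom. At an unadjusted p under 0.05 there was 1 member in each. For day 3 against day 1 it was Fosl2 (log2 fold change -0.44), where 9.42% of all genes were under it. For day 7 against day 3 it was Dusp1 (-0.54), where 5.04% were. For day 7 against day 1 there were 2, where 10.4% were, Fosl2 and Dusp1 (-0.53, adjusted p = 0.197 in limma).

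Fos, the classic marker of recent neuronal activity, was low. It had 0.833, 0.939 and 0.440 RPKM in naive libraries, 1.98, 1.18 and 1.17 at day 1, 0.774, 1.33 and 0.975 at day 3 and 1.12, 1.43 and 0.911 at day 7, from 14 to 66 reads a library. All 3 day 1 libraries lay above all 3 naive libraries, while days 3 and 7 overlapped naive. Means were 1.44 ± 0.464 RPKM at day 1 and 0.737 ± 0.263 RPKM in naive ganglia (SD, n = 3 each), and the log2 fold change of 0.66 did not pass (95% interval 0.11 to 1.21, adjusted p = 0.229 in limma). At days 3 and 7 the log2 fold changes were 0.29 (interval -0.26 to 0.84) and 0.42 (interval -0.13 to 0.97), and without naive replicate 3 they were 0.11 and 0.24. Without day 3 replicate 2 the day 3 value was 0.16. Over all alternative fits the values ran from 0.46 to 0.96, 0.11 to 0.47 and 0.24 to 0.66 at days 1, 3 and 7. None passed, and the highest on each day came from voom on recovered reads. The day 1 interval includes a doubling, so changes of about that size could not be settled with 3 libraries a group and reads this few.

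Fosb and Fosl1, which encodes Fra-1, were at the limit of detection. Fosb had 0 to 6 reads in naive libraries, 3 to 5 at day 1, 0 to 18 at day 3 and 0 to 10 at day 7. Fosl1 had 0 to 2 reads in naive libraries, 0 to 8 at day 1, 1 to 5 at day 3 and 2 to 5 at day 7. Each was at 0 in 3 of the 12 libraries and overlapped naive at every day. A count of 0 in naive replicate 1 allows up to 0.0554 RPKM of Fosb and up to 0.123 RPKM of Fosl1, taking 3 reads as the limit, and covers counting error only.

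Fosl2 made up most of the Fos family signal in every library. The summed RPKM of Fos, Fosb, Fosl1 and Fosl2 was 3.34 ± 0.292 in naive ganglia, 11.3 ± 1.77 at day 1, 8.46 ± 0.523 at day 3 and 7.10 ± 1.18 at day 7 (SD, n = 3 each). Fosl2 held 75.1% ± 6.69 of it in naive ganglia, 85.8% ± 3.08 at day 1, 84.4% ± 2.49 at day 3 and 81.4% ± 2.11 at day 7. Fos held 22.4% ± 8.56 of it in naive ganglia and 12.6% ± 2.00, 12.2% ± 3.51 and 16.2% ± 1.78 at days 1, 3 and 7. Its share was highest in naive replicates 1 and 2, at 27.8% and 26.9%, and naive replicate 3, at 12.5%, lay among the injured libraries. The shares are values without a test.

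**Figure D2:**
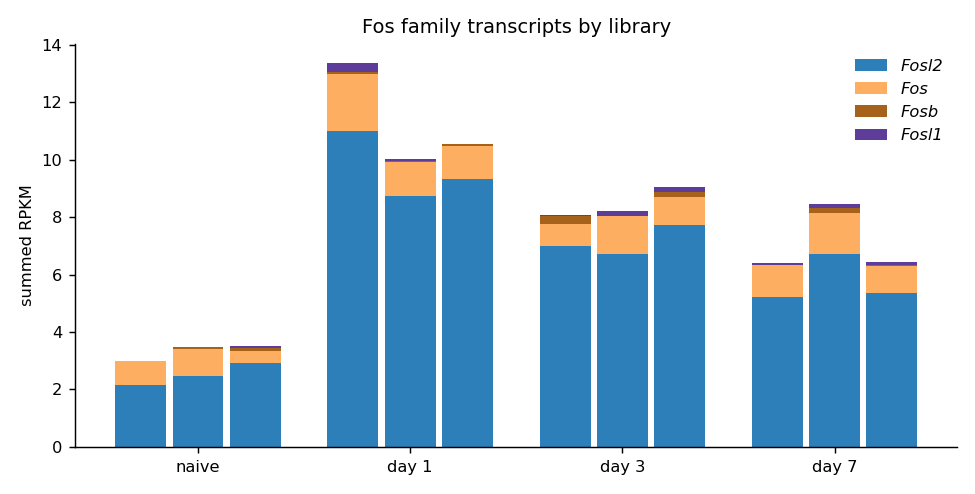
Summed RPKM of the 4 Fos family genes in each library, as stacked bars from 0 in replicate order within naive, day 1, day 3 and day 7. The blue part, Fosl2, makes up 70.4% to 88.2% of each bar, and the bars are lowest in naive ganglia.

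The Jun family members of the set, which pair with Fos proteins, did not pass. Jund had 0.897, 0.662 and 1.10 RPKM in naive libraries, 1.07, 0.953 and 1.08 at day 1, 1.06, 1.05 and 0.847 at day 3 and 1.12, 1.71 and 1.20 at day 7. Only at day 7 did all 3 libraries lie above naive, and narrowly. The log2 fold change there was 0.39 (95% interval -0.06 to 0.84, adjusted p = 0.48 in limma), after 0.16 (interval -0.28 to 0.61) at day 1 and 0.09 (interval -0.35 to 0.54) at day 3. Junb, an early partner that is often induced with Fos, had 1, 0 and 3 reads in naive libraries, 6, 4 and 14 at day 1, 1, 2 and 6 at day 3 and 6, 3 and 10 at day 7. Its day 1 libraries all lay above naive, yet with reads this few no test passed (log2 fold change 2.45, adjusted p = 0.197 with voom on recovered reads, keeping genes with at least 10 reads, a fit chosen after the data were seen).

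At day 1, 4 members had all 3 libraries above all 3 naive libraries in RPKM, namely Fosl2, Dusp1, Fos and Junb. Of all genes tested, 11.0% did so at day 1. Junb was not among the tested genes. Fosl2 and Dusp1 did so at day 3, against 13.8% of genes, and Fosl2 and Jund at day 7, against 11.0%. No member had all 3 libraries of a day below naive, against 11.7%, 12.7% and 7.13% of genes at days 1, 3 and 7.

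Dusp1 removes phosphates from p38, JNK and ERK kinases and so limits the signals that induce the other members. It stood at 5.25, 4.79 and 4.11 RPKM in naive libraries, 9.89, 8.47 and 12 at day 1, 9.25, 12.2 and 9.73 at day 3 and 5.04, 9.15 and 7.22 at day 7. Day 1 and day 3 libraries all lay above naive, and at day 7 replicate 1 lay within the naive range. Means were 10.1 ± 1.80 RPKM at day 1 and 4.71 ± 0.574 RPKM in naive ganglia (SD, n = 3 each), and the log2 fold change was 1.03 (SE 0.17), with an adjusted p of 0.0025 in limma. At day 3 the mean was 10.4 ± 1.57 RPKM and the log2 fold change again 1.03 (SE 0.17), at an adjusted p of 0.00165. At day 7, at 7.14 ± 2.06 RPKM, the log2 fold change of 0.50 (95% interval 0.14 to 0.85) did not pass (adjusted p = 0.161).

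The Dusp1 value at day 7 moved with the day 7 library left out. Without replicate 1 the log2 fold change was 0.64 and passed (adjusted p = 0.0497 in limma), and without replicate 2 it was 0.33 and did not (adjusted p = 0.474). Of 22 alternative fits 2 passed. Without the 2 libraries with muscle transcripts it was 0.36 (adjusted p = 0.582). The day 1 and day 3 calls held in all 22 alternative fits, with an adjusted p of at most 0.0199 and 0.0128, and so did the 3 Fosl2 calls against naive, with at most 0.000296, 0.00109 and 0.0431.

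**Figure D3:**
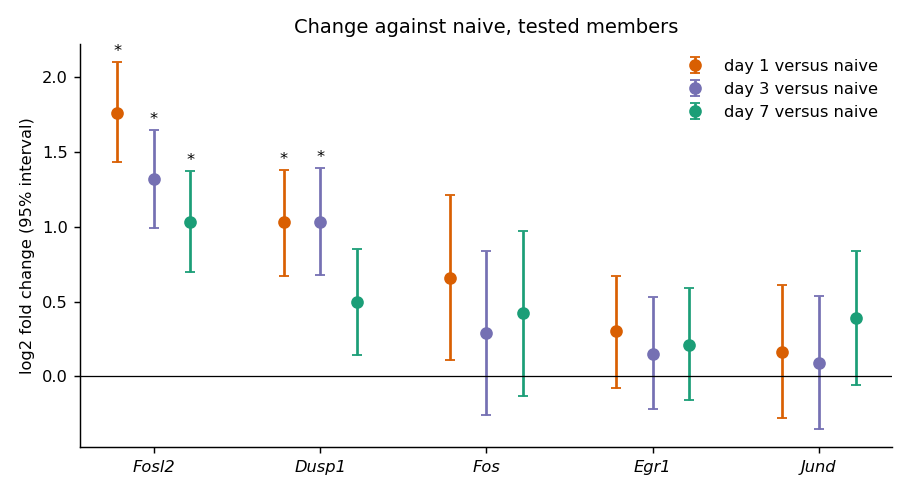
Log2 fold change against naive of the 5 tested members at days 1, 3 and 7, with 95% intervals from limma; asterisks mark an adjusted p under 0.05. Fosl2 is at 1.76, 1.32 and 1.03, Dusp1 is at 1.03, 1.03 and 0.50, and the points of Fos, Egr1 and Jund carry no asterisk.

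Egr1, a factor induced by growth signals through serum response factor, did not pass on any day. It had 3.43, 2.42 and 2.49 RPKM in naive libraries, 3.41, 2.83 and 4.30 at day 1, 2.88, 3.56 and 3.11 at day 3 and 2.40, 3.54 and 4.30 at day 7. All 3 days overlapped naive, and at day 7 one library was the lowest of all 12. The log2 fold changes against naive were 0.30 (95% interval -0.08 to 0.67, adjusted p = 0.48 in limma) at day 1, 0.15 (interval -0.22 to 0.53) at day 3 and 0.21 (interval -0.16 to 0.59) at day 7. The upper bounds lie below a doubling at each day. With 1 library left out the values ran from 0.19 to 0.40, from 0.09 to 0.26 and from 0.10 to 0.35 at days 1, 3 and 7, and none passed. The day 1 value was lowest without day 1 replicate 3, and the later ones without day 3 replicate 2 and day 7 replicate 3. Without naive replicate 1 they were 0.26 at day 3 and 0.32 at day 7, and without day 7 replicate 1 the day 7 value was 0.35.

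Ier2 and Arc, the remaining members, were below the filter. Ier2 had 12, 2 and 3 reads in naive libraries, 3, 1 and 8 at day 1, 18, 13 and 8 at day 3 and 9, 11 and 13 at day 7. Apart from naive replicate 1, the naive and day 1 libraries were the low ones, and the groups overlapped at all days. In that voom fit the log2 fold change at day 3 was 1.37 (adjusted p = 0.335). Arc, whose transcript marks activity in the brain, ranged from 0.253 to 0.560 RPKM in naive libraries, 0.310 to 0.650 at day 1, 0.449 to 0.641 at day 3 and 0.243 to 0.814 at day 7. Its lowest and highest libraries were both at day 7.

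Spread between libraries differed among members. Within groups the coefficient of variation of Fosl2 was 7.40% to 14.9%, that of Dusp1 12.2% to 28.8% and that of Fos 22.7% to 35.6%, while Junb reached 112% and Fosl1 173% in naive ganglia. The summed RPKM of a library, which is larger where reads fall on shorter genes, ran from 206957 to 235444. In each of the 4 groups the library with the largest sum had the highest Dusp1, as it did for 8.33% of all tested genes. For Egr1 this held in 3 of 4 groups and for Fosl2 in 1. After scaling between libraries it held in 3 of 4 groups for Dusp1 and Egr1, as for 20.1% of genes in at least 3. With the sum as a covariate, a choice made after the data were seen, Dusp1 rose at day 1 (log2 fold change 1.05, adjusted p = 0.000117 in limma), day 3 (0.95, adjusted p = 0.00019) and day 7 (0.45, adjusted p = 0.041).

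**Figure D4:**
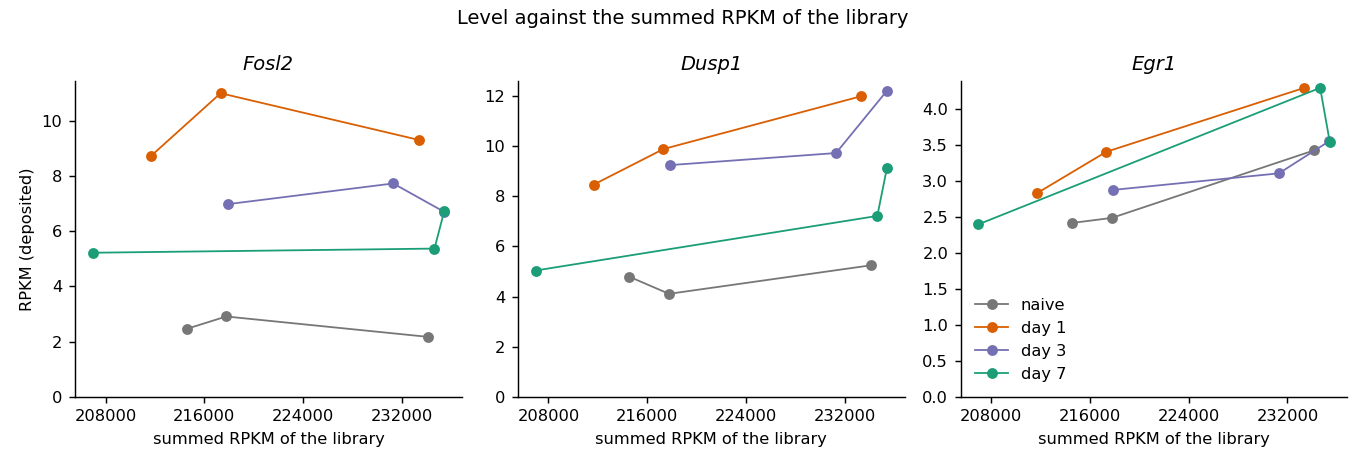
Deposited RPKM of Fosl2, Dusp1 and Egr1 (vertical axes, from 0) against the summed RPKM of each library, with the 3 libraries of a group joined by a line. Dusp1 is highest at the largest sum within every group, from 5.25 RPKM in naive to 12.2 RPKM at day 3, and Fosl2 lies above naive in all 9 injured libraries.

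Genes whose log2 values followed the members most closely over the 12 libraries were taken from 8913 tested genes with a name and a mean log2 value above 2, by Pearson's r as a description. For Fosl2 they were Cd44, an adhesion receptor for hyaluronan (r = 0.98), Fam53c (0.98) and Mapkbp1, a JNK-binding scaffold (0.97). Cd44 stood at 85.4 ± 4.16, 72.3 ± 5.23 and 64.9 ± 1.23 RPKM at days 1, 3 and 7 and at 46.0 ± 1.22 RPKM in naive ganglia (SD, n = 3 each). The order of groups was that of Fosl2, which is no separate result, since Cd44 was chosen by r over these libraries. For Dusp1 they were Stom, which encodes the membrane protein stomatin (0.97), the protein kinase A inhibitor Pkib (0.96) and Pi4k2a, a phosphatidylinositol kinase (0.95). For Fos the nearest were Eftud1, Gpr19 and Nfya (0.89, 0.86 and 0.85), and for Egr1 they were Fam63a, Lgals9 and Scp2 (0.96, 0.93 and 0.91). All points share the 12 libraries and their composition, so such values also hold differences between libraries.

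Among 35 other immediate early genes, 30 were tested. This list and those below were made with earlier results of these data known, so their counts are a description and no test of a list. At day 1, 6 rose and none fell, where 2.6% of all genes rose, with a median log2 fold change of 0.39 against -0.01 over all genes. At day 3, 6 rose and none fell (median 0.28), where 3.72% of all genes rose. At day 7, 4 rose and none fell (median 0.16), where 2.32% of all genes rose, and the medians over all genes were 0.00 on both days. At an unadjusted p under 0.05 there were 11, 12 and 9, against 14.9%, 17.8% and 13% of all genes. Voom called 7, 7 and 4 higher, against 3.1%, 4.35% and 2.73% of all genes. Jun and Atf3, which also encode AP-1 family factors, had the smallest p-values. Jun averaged 28.4, 26.6 and 21.2 RPKM at days 1, 3 and 7 and 8.92 RPKM in naive ganglia, with log2 fold changes of 1.61, 1.51 and 1.17 and adjusted p-values of 8.51e-05, 8e-05 and 0.00108 in limma.

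Atf3 rose by 4.61, 4.96 and 4.25 at the 3 days. The growth arrest gene Gadd45g rose by 1.96, 1.90 and 1.33, and Klf6, a zinc finger factor of axon growth in zebrafish, by 0.87, 1.03 and 0.91. Csrnp1 rose at day 1 by 1.37 and stood at 0.84 and 0.74 on later days without passing. Myc, the growth regulator, rose at day 1 by 0.92 and at day 3 by 0.83, and Ier5, named after its values were seen, rose at day 3 by 0.94. These genes rose beside Fosl2 and Dusp1, while Egr2 (0.37, 0.42 and 0.10), Egr3 (0.17, -0.29 and 0.12) and Nr4a1 (0.26, -0.19 and -0.22) had log2 fold changes that did not pass on any day.

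**Figure D5:**
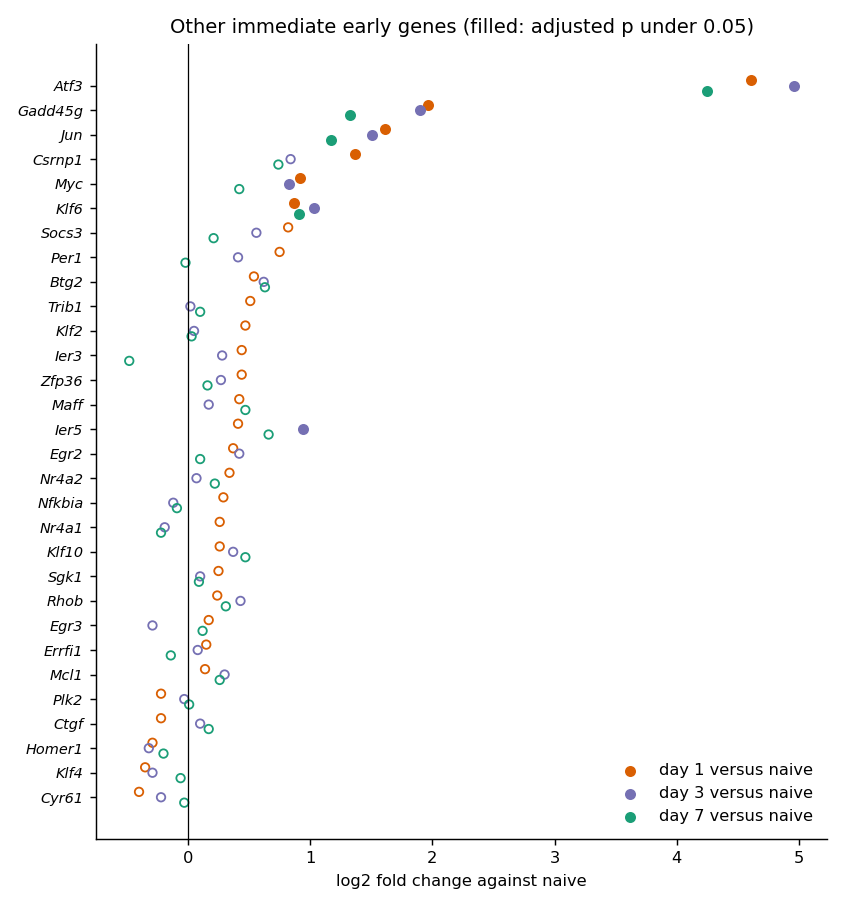
Log2 fold change against naive of the 30 tested other immediate early genes at days 1, 3 and 7 (colours), ordered by the day 1 value, with filled points for an adjusted p under 0.05. Atf3 lies far to the right at 4.25 to 4.96, followed by Gadd45g and Jun, and Egr2, Egr3 and Nr4a1 lie between -0.29 and 0.42 with open points.

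In the Jun family as a whole, Jun held 87.2% to 92.2% of the summed RPKM of Jun, Junb and Jund in naive libraries, 94.9% to 96.0% at day 1, 95.9% to 96.2% at day 3 and 92.1% to 93.8% at day 7. The Jund share was 7.51% to 11.6% in naive libraries, 2.91% to 4.41% at day 1, 3.25% to 3.85% at day 3 and 4.66% to 6.72% at day 7. The lower Jund share stood beside higher Jun, and Jund itself had 0.886 ± 0.218 RPKM in naive ganglia and 1.03 ± 0.0717, 0.988 ± 0.122 and 1.34 ± 0.321 RPKM at days 1, 3 and 7 (SD, n = 3 each).

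Of 17 tested bZIP genes that can pair with or compete with AP-1, out of 23 listed, 2 rose at day 1, 1 at day 3 and 1 at day 7, and none fell. Of all genes, 2.6%, 3.72% and 2.32% rose on those days in limma and 0.831%, 1.95% and 0.599% fell. At an unadjusted p under 0.05 there were 4, 4 and 2, against 14.9%, 17.8% and 13% of all genes. Voom called 2, 2 and 1 higher, against 3.1%, 4.35% and 2.73% of all genes. Bach1, a repressor of oxidative stress genes, rose by 0.86, 1.38 and 1.25, and Cebpd, an inflammation-linked factor, rose at day 1 by 0.93 (adjusted p = 0.0445 in limma). Of 29 kinases and factors upstream of the members 3, 3 and 2 rose at days 1, 3 and 7 and none fell, where 2.6%, 3.72% and 2.32% of all genes rose. At an unadjusted p under 0.05 there were 6, 9 and 6, and voom called 4, 3 and 2 higher, against the same shares of all genes. Voom called 1 lower at day 3, where 3.11% of all genes were called lower. The p38 kinase Mapk14 rose by 0.51, 0.62 and 0.54, Crem, a cAMP-responsive factor, by 0.69, 0.61 and 0.63, and the S6 kinase Rps6ka1 by 0.93 and 0.80 at days 1 and 3. The list medians were 0.18, 0.08 and 0.16 for bZIP genes and 0.10, -0.03 and -0.02 for the upstream list.

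The other MAP kinase phosphatases did not pass in limma. Of 9 tested MAP kinase phosphatases, limma called 0 on any day, where 2.6%, 3.72% and 2.32% of all genes rose and 0.831%, 1.95% and 0.599% fell. At an unadjusted p under 0.05 there were 3, 2 and 2, against 14.9%, 17.8% and 13% of all genes. Voom called 1 higher at day 1 and 0 later, where 3.1%, 4.35% and 2.73% of all genes were called higher. Their log2 fold changes ran from -0.33 to 0.87 at day 1, and the difference between Dusp1 and these genes was not tested. The Egr corepressors Nab1 and Nab2 were not called (0 at an unadjusted p under 0.05 and 0 with voom), with Nab2 at 0.16, -0.19 and 0.04. Of 8 tested heat shock genes 1 rose at day 3, Hspb1 by 1.19, and limma called 0 at days 1 and 7. At an unadjusted p under 0.05 there were 1, 2 and 2 at days 1, 3 and 7, against the same shares of all genes as above. Voom called 1 higher at day 1, 1 higher and 1 lower at day 3 and 0 at day 7. At day 3 voom called 3.11% of all genes lower. The part of heat shock genes in the members' changes was not tested.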

How the data were processed

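Titles gave each library its group and replicate. Total RNA was extracted with Trizol, cleaned up with DNase treatment and prepared by Nugen Ovation ultra low input and TruSeq Nano chemistry, per the labels' protocols. The mm10 build and the tools STAR, HTSeq, limma, edgeR and bcl2fastq (version 2.17) are named per the submitters' processing notes, without their roles. For the annotation and the strand setting, the sources used here give nothing. Values deposited by the authors carry no unit and were taken as RPKM. The values of nearly all genes are whole multiples of a step, which is what 1 read is worth. The step differs between genes, at 0.0119 for Fosl2 and 0.0458 for Ier2 in naive replicate 1. Whether it follows gene length was not tested.

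Whole reads were recovered from those steps for 21590 of 21597 detected genes (99.97%), with a tolerance of 0.05 reads. The other 7 genes were left out of recovered totals and voom. The tests covered the 14195 genes that reached 1 RPKM in 3 or more libraries, after scaling by trimmed means of log ratios (30% and 5% trimmed) and log2(RPKM + 0.5). Printed RPKM are unscaled. limma 3.58.1 (R 4.3.3) fitted 4 group means to 12 libraries with 8 residual degrees of freedom, trend and robust moderation. Two-sided p-values were adjusted over all tested genes by the Benjamini-Hochberg method. The fit was tested on simulated data. An exact permutation test of 3 against 3 cannot go below p = 0.1.

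The 10 members, the lists and the rule for named genes (at most 6 called genes a list, and 3 most similar genes for Fosl2, Dusp1, Fos and Egr1) were chosen with earlier results of these data known. Junb was in the similarity rule but was not tested. The design had left the test open between counts and normalized values. Since the files hold RPKM, limma was used. Alternatives were other pseudocounts, no filter, no scaling, voom, 1 library left out, a replicate block, fits without 2 libraries with muscle transcripts, and fits to only the 2 groups compared. A covariate for the library RPKM sum and a voom fit with a lower filter were added after seeing the data.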

Additional observations from a re-analysis of the deposited data

Results flagged for a closer look

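Fosl2 met the rule for a difference between time points, with a log2 fold change of -0.73 for day 7 against day 1 (adjusted p = 0.0414 in limma). Fosl2 was the only one of the 5 tested members with such a difference between injury days in that fit. The call held in 7 of 22 alternative fits. For Fosl2, all 3 day 7 libraries lay below all 3 day 1 libraries, and the share of all genes that did so was not counted.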

How the results depend on the processing

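The counts of members called against naive were 2 at day 1, 2 at day 3 and 1 at day 7. They kept these values with other pseudocounts, no filter, no scaling, voom, the replicate block, fits without the 2 muscle-rich libraries and fits to only the 2 groups compared. At day 7 the count was 2 with the library RPKM sum as a covariate, and 1 to 2 with 1 library left out. Between injury days 1 member was called, against 0 with a pseudocount of 0.1, no expression filter, only the 2 groups compared or without the 2 libraries with muscle transcripts, 2 with the RPKM sum as a covariate, and 0 to 1 with 1 library left out. The cause was not tested. Jund at day 3 had a log2 fold change of 0.09, and with 1 library left out it ran between -0.02 (without naive replicate 2) and 0.21, none called. Of 372 alternative values for single genes, 353 kept their direction and side of the threshold.

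The replicate number as a block gave 0 members between injury days in place of 1, with Fosl2 at an adjusted p of 0.0909 in limma. Of 18 pairs of libraries with the same number, 3 had deviations correlated above 0.1 (-0.34 to 0.23), so the numbers were not taken to pair the samples, and 4 of 12 libraries correlated best with their own number. Low read counts limit Fosb, Fosl1, Junb and Ier2, each with at most 18 reads in any library. The labels give an input of 500 pg for each library, and the parts of input and sequencing depth were not tested.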
